A study of Mus musculus with 16 samples.

Results

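Glucocorticoid-induced genes were followed in whole mouse hindlimb muscle after spinal cord injury and muscle injury. The members were 10 genes, Fkbp5, Tsc22d3, Zbtb16, Pdk4, Mt1, Mt2, Cebpd, Sgk1, Klf9 and Nr3c1, and every probe that the array table lists under 1 of these symbols was taken. This gave 9 probes for 8 genes among the 25697 probes and 18097 gene symbols of the table. Zbtb16 and Cebpd had no probe under their symbols and were not analysed here. All 9 probes passed the filter on dim probes described below, which kept 14763 probes of the table.

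Glucocorticoids are steroid hormones of the adrenal cortex that are released under stress. They bind the glucocorticoid receptor, the product of Nr3c1, which is held in the cytoplasm by heat shock protein 90 and its partner proteins and, once bound, moves to the nucleus and switches on genes that carry its binding sites. In skeletal muscle the hormone is known for raising genes of protein breakdown and for shifting fuel use from glucose towards fat.

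The mice were female and underwent either spinal cord injury (SCI), placed between thoracic vertebrae, or a sham operation, as the labels state. Their hindlimb muscle was injected with saline or with cardiotoxin (CDTX), a venom protein that kills muscle fibres. Crossing these gave Sham+Saline, Sham+CDTX, SCI+Saline and SCI+CDTX groups, with 4 arrays each, and muscle was taken 2 days after surgery. The series design states that only SCI+CDTX muscle forms neurogenic heterotopic ossifications, that is, bone that grows within muscle when the nervous system is damaged. The labels give no strain, age or circulating hormone level, and no group was treated with a glucocorticoid or a receptor blocker. The sample titles name each sample as a mouse, which is taken here as 1 animal an array.

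The arrays were read as follows. SCI+CDTX replicate 2, excluded by the authors per the labels, was left out of all tests unless stated, so that 15 arrays were used. Levels are log2 normalized intensities. A probe was kept when its detection p-value was under 0.05 on at least 3 arrays, and a difference was called when its limma p, adjusted over all 14763 kept probes by the Benjamini-Hochberg method, was under 0.05. Levels are not compared between probes, since each probe has its own brightness per molecule.

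Several features of the arrays touch every result. All SCI arrays were on 1 slide and all sham arrays on the other, so for SCI against sham the surgery and the slide cannot be told apart, while each CDTX effect lies within a slide. Mean raw intensity was 230.5 to 277 on the Sham+Saline arrays and 319.9 to 373.1 on the other 12. Median scaling in place of quantile normalization moved the median log2 difference of all kept probes from -0.04 to 0.32 for Sham+CDTX against Sham+Saline and from -0.01 to 0.17 for SCI+Saline against Sham+Saline, so each direction given is one relative to the median probe. The Sham+CDTX arrays also stood apart in how different probes of 1 gene related to each other. A score of these probe differences over 2781 genes, their first principal component with 33% of the variance, was 0.35 to 0.39 on the Sham+CDTX arrays, 0.28 on SCI+CDTX 2 and -0.27 to -0.07 on the other 11. Apart from SCI+CDTX 2, the score thus nearly marks the Sham+CDTX group. In fits with it as a covariate, effects that involve Sham+CDTX can hardly be told apart from the score. A call lost there does not show that the difference is absent.

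The 15 muscle fibre markers were detected on every array, as the labelled tissue requires, with summed normalized intensities of 165500 to 202500. The 10 kept macrophage and monocyte markers summed to 12640 to 18820 in SCI+CDTX and 15820 to 18910 in Sham+CDTX, against 919.3 to 4150 in SCI+Saline and 1162 to 2071 in Sham+Saline. Of 10 neutrophil markers 6 were kept, and the defining genes Ly6g, Mmp8, Cxcr2 and Ngp were not. Their sum was 12810 on SCI+Saline 4 and 11500 on Sham+Saline 4, against 2047 to 3875 on the other SCI+Saline arrays and 177.7 to 227.3 on the other Sham+Saline arrays. In such bulk tissue, fewer cells of a type and less RNA per cell cannot be told apart.

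The metallothioneins Mt1 and Mt2 changed most among the members. They encode small cysteine-rich proteins that bind zinc and copper, and both genes are textbook targets of zinc, through the metal-regulated factor MTF1, and of glucocorticoids. They lie next to each other on chromosome 8 (band 8qC5). Their upstream regions, from RefSeq for the GRCm38.p6 build, are shown because letters of the core bound by the metal-regulated factor occur in both. The sequence for Mt1 is the 250 bases before its start site (chr8:94178839-94179088, plus strand) and that for Mt2 the 250 bases before its own (chr8:94172368-94172617, plus strand), with matches of TGCACNC or TGCGCNC on either strand in capitals.
Mt1: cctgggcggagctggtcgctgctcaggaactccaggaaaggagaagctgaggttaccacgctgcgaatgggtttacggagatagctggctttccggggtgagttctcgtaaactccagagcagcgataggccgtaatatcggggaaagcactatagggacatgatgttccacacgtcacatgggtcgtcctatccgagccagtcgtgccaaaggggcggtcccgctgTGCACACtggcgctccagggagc
Mt2: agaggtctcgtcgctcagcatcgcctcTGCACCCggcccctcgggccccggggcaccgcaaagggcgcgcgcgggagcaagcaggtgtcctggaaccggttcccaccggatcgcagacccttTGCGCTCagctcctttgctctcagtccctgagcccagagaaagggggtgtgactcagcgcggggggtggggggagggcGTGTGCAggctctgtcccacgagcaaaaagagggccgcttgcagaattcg
The Mt1 window held 1 match, which ends 16 bases before the start site that RefSeq lists. The Mt2 window held 3, which end 216, 121 and 43 bases before its start site. Of 32851 such windows of all genes, 21.4% held at least 1 match and 1.26% held at least 3. The windows of Fkbp5, Klf9, Pdk4, Sgk1 and Tsc22d3 held none. Each window stops at a start site listed by RefSeq, and matches after it or further upstream were not searched. A match of letters is a description of the sequence and not a measured binding site.

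Mt1 (probe ILMN_2596522) stood at 10.02, 10.24, 10.14 and 10.52 on the 4 Sham+Saline arrays and at 12.67, 12.44, 12.50 and 12.35 on the Sham+CDTX arrays. On the SCI+Saline arrays it was at 13.89, 13.77, 13.39 and 13.85, and on the 3 SCI+CDTX arrays used at 13.83, 13.73 and 13.93. Both sham groups lay apart from each other and below every SCI array, and the 2 SCI groups overlapped. SCI raised Mt1 11.3-fold in saline muscle (log2 difference 3.49, SE 0.15, adjusted p 1.07e-11) and 2.54-fold in CDTX muscle (1.34, SE 0.16, adjusted p 5.91e-06). CDTX raised it 4.78-fold after sham surgery (2.26, SE 0.15, adjusted p 2.65e-09). After SCI the difference between CDTX and saline was 0.11 with a 95% interval of -0.22 to 0.44 (adjusted p 0.618). These called differences of Mt1 were called in each of the 15 fits that left out 1 array and with the probe difference score as a covariate, where the sham CDTX effect was 1.61.

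Mt2 (ILMN_1219154) followed the same order on a dimmer probe. It was at 4.28, 5.00, 4.32 and 4.83 in Sham+Saline, where only replicates 2 and 4 were detected, and at 6.23, 5.74, 5.74 and 5.49 in Sham+CDTX. In SCI+Saline it was at 8.48, 8.01, 7.34 and 7.99, and in SCI+CDTX at 7.41, 7.76 and 8.33. No sham array reached the lowest SCI array. SCI raised Mt2 4.08-fold in CDTX muscle (2.03, SE 0.26, adjusted p 1.61e-05). Against Sham+Saline, where 2 of 4 arrays were at background, the folds are bounds, taken against the lowest detected level of each array where the probe was under it. SCI raised Mt2 at least 8.62-fold in saline muscle (measured difference 3.35, SE 0.24, adjusted p 1.34e-08) and CDTX raised it at least 1.94-fold after sham surgery (1.19, SE 0.24, adjusted p 0.000469). The call for CDTX after sham surgery was not called without background correction (0.40, adjusted p 0.056) or with the probe difference score (1.12, adjusted p 0.218). In the authors' deposited table, which adds no offset, the group means of Mt2 were 5.7 in Sham+Saline, 50.2 in Sham+CDTX, 213 in SCI+Saline and 252.3 in SCI+CDTX, a log2 difference of 5.22 for SCI in saline muscle.

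For both metallothioneins the CDTX effect after SCI was smaller than the CDTX effect after sham surgery. This interaction, the CDTX effect after SCI minus that after sham, was -2.15 for Mt1 (SE 0.21, adjusted p 4.5e-06) and -1.32 for Mt2 (SE 0.36, adjusted p 0.0116), the latter resting on Sham+Saline arrays at background. An effect of the slide that adds the same log2 amount to a probe in both groups of that slide cancels in it. The Mt1 term stayed called with the probe difference score (-1.59, adjusted p 0.0279), while the Mt2 term was not called with it (-1.28, adjusted p 0.364) or without background correction (-0.49, adjusted p 0.159). Mt1 reached 50.7% to 75.7% of the brightest probe's raw intensity on the SCI arrays used, 27.1% to 38.4% on the Sham+CDTX arrays and 3.65% to 6.84% on the Sham+Saline arrays. Whether so bright a probe reads a further rise in full was not tested. Among all 14763 kept probes ordered by the SCI difference in saline muscle, Mt1 stood in place 9 and Mt2 in place 11 from the highest. Immune cell markers moved with these differences in part. With SCI in saline muscle the macrophage and monocyte markers Cd68 (1.82, adjusted p 0.000319), Ms4a7 (1.15) and Cd14 (0.71) were called higher, 3 of 10, and the neutrophil marker S100a8 was called higher (4.74, adjusted p 0.00475), 1 of 6. The summed neutrophil markers were 3113 to 5196 in SCI+CDTX against 671.1 to 976.5 in Sham+CDTX, and 2047 to 12810 in SCI+Saline against 177.7 to 227.3 on Sham+Saline 1, 2 and 3 and 11500 on Sham+Saline 4. The part of these cells in the metallothionein differences was not tested.

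**Figure D1:**
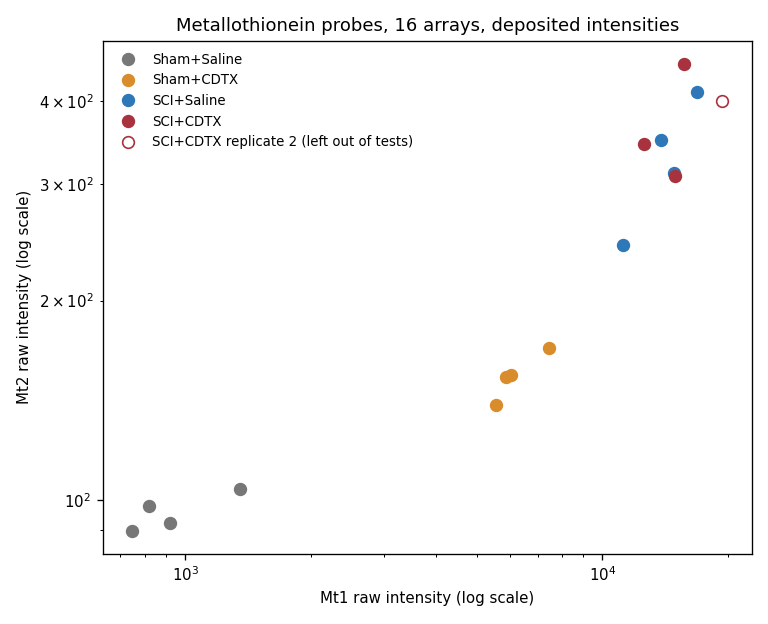
Raw deposited intensity of the Mt1 probe (x axis, log scale) against that of the Mt2 probe (y axis, log scale), 1 point per array for all 16 arrays and coloured by group, with the array left out of the tests open. Sham+Saline arrays lie lowest (Mt1 746.5 to 1353.6), Sham+CDTX arrays between (5573.2 to 7434.5), and the SCI arrays highest (11233.8 to 19397.3) with both SCI groups mixed.

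Tsc22d3 encodes GILZ, a leucine zipper protein induced by glucocorticoids that restrains inflammatory signalling. It had 2 probes on the X chromosome, ILMN_2701664 and ILMN_3150811. The table lists the first against transcript variant 2 with probe type S and the second against variant 1 with probe type A. Neither is marked as specific to an isoform, so their values are given by probe and not by isoform. ILMN_2701664 was at 6.49, 6.79, 6.47 and 6.46 in Sham+Saline and at 5.66, 5.58, 5.90 and 6.07 in Sham+CDTX. It was at 7.96, 8.61, 8.54 and 8.04 in SCI+Saline and at 7.76, 7.42 and 7.53 in SCI+CDTX. The 4 groups did not overlap at this probe, with the order Sham+CDTX, Sham+Saline, SCI+CDTX, SCI+Saline from low to high. SCI raised it 3.33-fold in saline muscle (1.74, SE 0.17, adjusted p 4.86e-07) and 3.41-fold in CDTX muscle (1.77, SE 0.18, adjusted p 1.52e-06). Both were called in each fit without 1 array and with the probe difference score (1.80 and 1.20).

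CDTX lowered ILMN_2701664 within both surgeries, by 0.72 on the log2 scale after SCI (SE 0.18, adjusted p 0.00374) and by 0.75 after sham surgery (SE 0.17, adjusted p 0.00113), with an interaction of 0.03 (95% interval -0.49 to 0.55). The sham value depended on the scaling and on the score. It was 0.05 after median scaling, where the middle of all probes stood at 0.32, and -0.03 with the probe difference score (adjusted p 0.969). The value after SCI was -0.51 and -0.63 in the same fits, called in both.

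The probe ILMN_3150811 was at 10.87, 10.89, 10.89 and 10.92 in Sham+Saline and at 10.96, 10.86, 11.06 and 11.08 in Sham+CDTX, which overlap. It was at 11.69, 11.85, 12.13 and 11.83 in SCI+Saline and at 11.72, 11.00 and 11.34 in SCI+CDTX. SCI raised it 1.98-fold in saline muscle (0.98, SE 0.15, adjusted p 6.54e-05), and the 2 saline groups did not overlap. In CDTX muscle the SCI difference was 0.36 (95% interval 0.03 to 0.70, adjusted p 0.0998), and it was called at 0.54 without SCI+CDTX 3, at 0.59 with all 16 arrays and at 0.64 with each slide normalized separately. CDTX lowered it by 0.52 after SCI (SE 0.16, adjusted p 0.013), which was not called without SCI+CDTX 3 (-0.35, adjusted p 0.117) or with all 16 arrays (-0.29, adjusted p 0.285). After sham surgery its CDTX difference was 0.10 (adjusted p 0.617). Its interaction of -0.62 (adjusted p 0.0465) was called in 3 of the 15 fits without 1 array, and with the probe difference score it was 0.32 (adjusted p 0.792).

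The 2 Tsc22d3 probes did not move by the same amount. The probe ILMN_2701664 minus ILMN_3150811 was -4.46 to -4.10 in Sham+Saline, -5.29 to -5.01 in Sham+CDTX, -3.80 to -3.24 in SCI+Saline and -3.96 to -3.58 in SCI+CDTX. By an exact two-sided permutation test over arrays, adjusted over 4 comparisons, this difference changed with SCI by 0.75 in saline muscle and by 1.41 in CDTX muscle, and with CDTX by -0.85 after sham surgery (p 0.0286, adjusted p 0.0381 in each). The p of 0.0286 is the smallest that these group sizes allow. With CDTX after SCI it changed by -0.19 (exact permutation p 0.343). The Sham+CDTX arrays, lowest here, are those that stand apart in the probe difference score over 2781 genes. In the fit with the score as a covariate, ILMN_2701664 and ILMN_3150811 differed between SCI and sham by 1.20 and 1.21 in CDTX muscle, and by 1.80 and 0.89 in saline muscle, a comparison that involves no Sham+CDTX array.

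**Figure D2:**
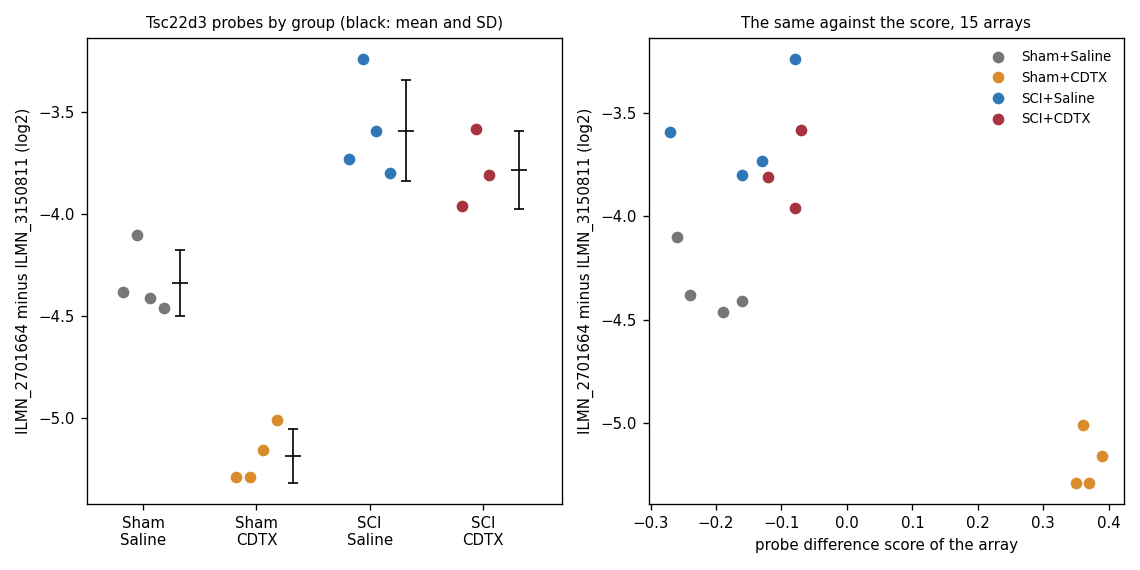
Difference of the Tsc22d3 probe ILMN_2701664 minus ILMN_3150811 (log2, y axis) on 15 arrays, by group at left with mean and SD in black, and at right against the array's probe difference score. Sham+CDTX arrays are lowest (-5.29 to -5.01) and have the highest scores (0.35 to 0.39), while Sham+Saline and SCI+Saline arrays lie apart on the y axis at scores that overlap.

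Sgk1 encodes serum/glucocorticoid regulated kinase 1, which acts on ion channels and cell survival. Among the members it was the 1 whose upstream sequences held the full palindrome that the receptor dimer is known to bind, which reads AGAACA, any 3 bases and then TGTTCT and was searched on either strand of the windows of Fkbp5, Klf9, Mt1, Mt2, Pdk4, Sgk1 and Tsc22d3. RefSeq lists 6 start sites for Sgk1 in the table used, and the match ends 174 bases before the fifth. The stretch printed is 75 bases around it (GRCm38.p6, chr10:21993671-21993745, plus strand) with the match in capitals.
Sgk1: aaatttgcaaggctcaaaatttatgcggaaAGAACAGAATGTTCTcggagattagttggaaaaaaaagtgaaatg
Only 3 of the 32851 windows of 250 bases held this palindrome (0.00913%), while its first 6 letters AGAACA occurred in 16.1%. AGAACA also occurred in 1 of the 3 Tsc22d3 windows.

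Sgk1 (ILMN_1213954) was at 11.38, 11.36, 11.54 and 11.64 in Sham+Saline and at 11.83, 12.35, 12.08 and 11.84 in Sham+CDTX. It was at 11.69, 12.04, 12.06 and 12.02 in SCI+Saline and at 12.30, 11.96 and 12.40 in SCI+CDTX. All 4 Sham+Saline arrays lay below the 11 others, which overlapped. CDTX raised it 1.46-fold after sham surgery (0.54, SE 0.15, adjusted p 0.00595) and SCI raised it 1.39-fold in saline muscle (0.47, SE 0.15, adjusted p 0.0241). The rise with SCI was not called in 4 of the 15 fits without 1 array, namely without SCI+Saline 2 (0.44), SCI+Saline 3 (0.44), Sham+Saline 1 (0.44) or Sham+Saline 2 (0.43). The CDTX rise after sham surgery was larger but not called with the probe difference score (0.72, adjusted p 0.195). With both injuries against neither, Sgk1 was 1.67-fold higher (0.74, SE 0.16, adjusted p 0.00104). Adding CDTX to SCI gave 0.26 (95% interval -0.08 to 0.61) and adding SCI to CDTX gave 0.20 (-0.15 to 0.54), neither called.

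Fkbp5 encodes FKBP51, a partner protein of heat shock protein 90 that lowers the receptor's affinity for hormone and is itself strongly induced by it. Its probe (ILMN_2718266, chromosome 17) was at 5.64, 6.50, 6.72 and 6.67 in Sham+Saline and at 5.74, 6.05, 6.08 and 6.20 in Sham+CDTX. It was at 6.57, 6.85, 6.85 and 6.69 in SCI+Saline and at 6.50, 6.61 and 6.95 in SCI+CDTX. Sham+Saline 1 lay far below its group, and apart from it the saline groups overlapped. Fkbp5 was 1.59-fold higher in SCI+CDTX than in Sham+CDTX (0.67, SE 0.21, adjusted p 0.0235). The call was lost without SCI+CDTX 4 (0.54, adjusted p 0.128), without Sham+CDTX 1 (0.58, adjusted p 0.0684) and with no detection filter (adjusted p 0.0544). With the probe difference score the difference was larger but not called (1.11, adjusted p 0.122). In saline muscle the SCI difference was 0.36 (95% interval -0.05 to 0.78, adjusted p 0.189), and it was called after median scaling (0.72). The CDTX difference after sham surgery was -0.36 (adjusted p 0.14), -0.62 and called without Sham+Saline 1, and 0.41 after median scaling. Fkbp5 is a widely used reporter of the receptor's activity. Its SCI difference in saline muscle was not called, with an interval that reached 0.78, so a rise there was not excluded. The Tsc22d3 and metallothionein probes rose in the same comparison, and the part of the receptor in these differences was not tested.

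Klf9 encodes a zinc finger repressor that glucocorticoids induce in many tissues. Its probe (ILMN_1254031, band 19qB) was at 9.80, 10.53, 11.28 and 10.78 in Sham+Saline, at 9.46, 9.82, 10.68 and 10.16 in Sham+CDTX and at 10.65, 10.09, 10.61 and 9.84 in SCI+Saline, which all overlapped. In SCI+CDTX it was at 9.03, 7.97 and 8.87, below all 12 of those arrays. Its level there was 3.2-fold lower than in SCI+Saline (-1.68, SE 0.33, adjusted p 0.0005), 2.65-fold lower than in Sham+CDTX (-1.41, SE 0.33, adjusted p 0.00336) and 3.94-fold lower than in Sham+Saline (-1.98, SE 0.33, adjusted p 7.15e-05). The excluded array SCI+CDTX 2 was at 10.34 in the normalization of all 16 arrays. With it the differences were -1.25, -0.98 and -1.55 in the same order, and the one against Sham+CDTX was no longer called (adjusted p 0.0912). With the probe difference score, in a fit that also held SCI+CDTX 2, the difference against Sham+CDTX was 0.41 (adjusted p 0.818). The differences against SCI+Saline and Sham+Saline stayed called there at -1.88 and -2.38. The interaction of -1.11 (95% interval -2.05 to -0.16) was not called (adjusted p 0.0837), was called after median scaling (-1.54) and was called without SCI+Saline 4 (-1.26), Sham+CDTX 1 (-1.30) or Sham+Saline 3 (-1.33).

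Pdk4 encodes pyruvate dehydrogenase kinase 4, which shuts off glucose oxidation when fuel shifts to fat. It (ILMN_1259322, chromosome 6) spread most within a group among the member probes. It was at 7.76, 8.44, 9.49 and 11.45 in Sham+Saline, which spans all 11 other arrays, at 8.78, 10.05, 9.30 and 8.85 in Sham+CDTX, at 9.33, 9.80, 9.72 and 9.73 in SCI+Saline and at 9.08, 9.24 and 8.59 in SCI+CDTX. No comparison was called. The highest array, Sham+Saline 4, was also the Sham+Saline array with high neutrophil markers, and without it the SCI difference in saline muscle was 1.08 (adjusted p 0.0197) and the interaction -1.35 (adjusted p 0.0427), both called, against 0.36 (adjusted p 0.649) and -0.63 (adjusted p 0.595) with it. SCI+CDTX lay below SCI+Saline on every array used (-0.68, 95% interval -1.83 to 0.48, adjusted p 0.35), and that difference was called when only these groups were fitted (adjusted p 0.0167). The excluded array SCI+CDTX 2 did not lie below. In the normalization of all 16 arrays it was at 10.135, above every SCI+Saline array (9.362 to 9.832).

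Nr3c1, the receptor itself, was close to the limit of detection. Its probe (ILMN_2740568) was detected on 0 of 4 Sham+Saline, 3 of 4 Sham+CDTX, 1 of 4 SCI+Saline and 1 of 3 SCI+CDTX arrays, and on SCI+CDTX 2 as well. Its levels were 4.28, 4.31, 4.62 and 4.40 in Sham+Saline, 4.50, 4.78, 4.89 and 4.94 in Sham+CDTX, 4.45, 4.31, 4.71 and 4.45 in SCI+Saline and 4.52, 4.30 and 4.31 in SCI+CDTX. The lowest detected level of any probe on an array was 4.50 to 4.87, so most of these are not above background and have no order. The Sham+CDTX group was called higher than Sham+Saline (0.38, adjusted p 0.032), but no fold is given, and the call was lost in 6 of the 15 fits without 1 array, with all 16 arrays (adjusted p 0.0873), without background correction (adjusted p 0.0564) and with the probe difference score, where the sign turned (-0.51, adjusted p 0.388). A low probe does not measure the amount of receptor protein.

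**Figure D3:**
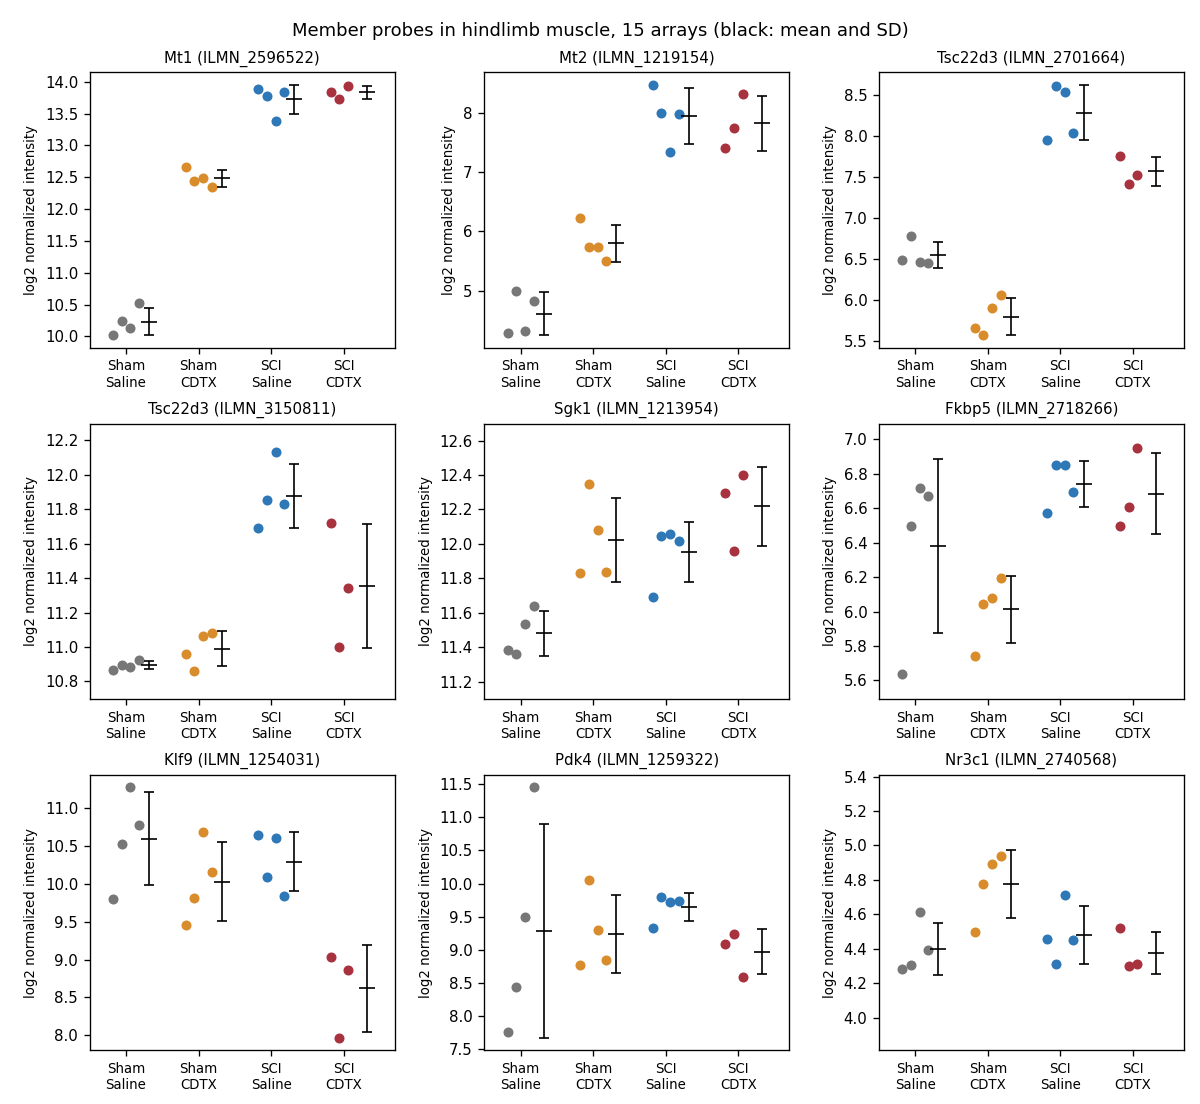
Levels of the 9 member probes (log2 normalized intensity, y axis, with a separate range in each panel) on the 15 arrays used, 1 point per array by group, with the mean and SD in black. Mt1, Mt2 and the Tsc22d3 probe ILMN_2701664 separate SCI from sham arrays, Klf9 is lowest in SCI+CDTX, Pdk4 spreads widest in Sham+Saline, and Nr3c1 stays between 4.28 and 4.94.

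Counted over the 9 member probes, SCI in saline muscle gave 5 called higher and 0 lower, where 29.5% of all kept probes were called, 14.8% higher and 14.6% lower. SCI in CDTX muscle gave 4 higher and 1 lower, where 29.8% of all kept probes were called, 14.9% in each direction. CDTX after sham surgery gave 4 higher and 1 lower, against 48.9% of all kept probes, 23.1% higher and 25.8% lower. CDTX after SCI gave 0 higher and 3 lower, against 42.9%, 20.4% higher and 22.5% lower. Both injuries against neither gave 5 higher and 1 lower, against 46.5%, 23% higher and 23.6% lower. The interaction was called for 3 probes, all negative, against 23.6%, of which 12% were positive and 11.6% negative. The CDTX counts thus stand near the background in number, and in the SCI comparisons most called members were higher. The median log2 difference of the 9 probes was 0.47 for SCI in saline muscle, 0.36 for SCI in CDTX muscle, 0.10 for CDTX after sham surgery and -0.12 for CDTX after SCI, against -0.01, 0.01, -0.04 and -0.05 for all kept probes. Of all calls, 50.3% were higher for SCI in saline muscle and 47.3% for CDTX after sham surgery, and these shares were 86.4% and 85.1% after median scaling. The comparisons share groups, so their counts are not independent of each other.

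**Figure D4:**
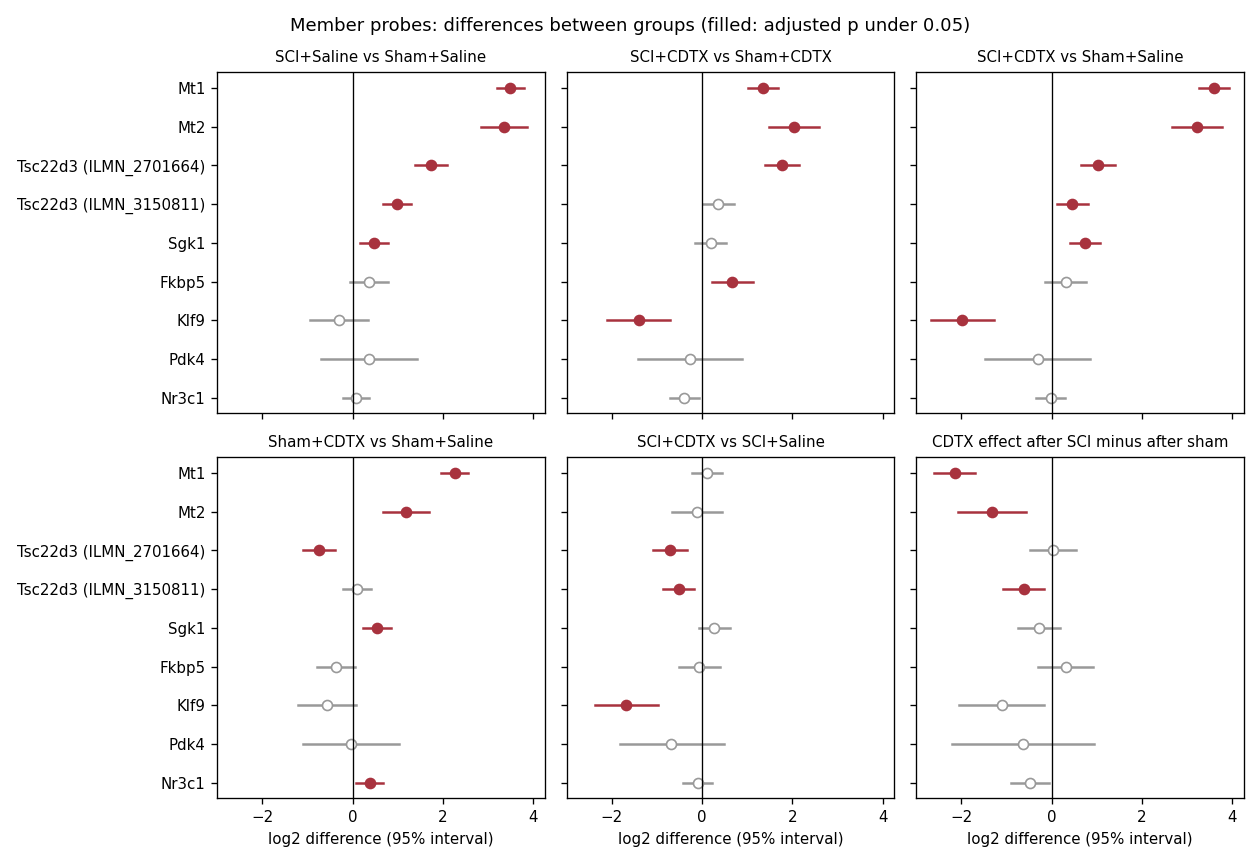
Log2 difference with its 95% interval (x axis) for each member probe (y axis) in the 5 comparisons and the interaction, with called differences filled in red and others open in grey. Mt1, Mt2 and Tsc22d3 ILMN_2701664 lie right of 0 in all 3 comparisons of an SCI group with a sham group, Klf9 lies left of 0 in the comparisons of SCI+CDTX, and Mt1 has the largest interaction at -2.15.

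Other genes known as glucocorticoid targets were read from a list of 40, of which 35 had a kept probe. With SCI in saline muscle 15 rose and 3 fell (median 0.36), where 29.5% of all kept probes were called and 50.3% of those calls were higher. With SCI in CDTX muscle 14 rose and 3 fell (median 0.49), against 29.8% called and 49.9% of the calls higher. With CDTX after sham surgery 9 rose and 8 fell, near the 48.9% of all kept probes called, and with CDTX after SCI 11 rose and 11 fell, where 42.9% were called. Median scaling gave 21 higher and 2 lower for SCI in saline muscle, 12 and 3 for SCI in CDTX muscle, and 17 and 3 for CDTX after sham surgery. After that scaling 86.4% of all calls were higher for SCI in saline muscle, 44.9% for SCI in CDTX muscle and 85.1% for CDTX after sham surgery, so only the split for SCI in CDTX muscle then stood away from that of all probes.

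The largest rises with SCI in saline muscle were Gadd45a (2.65, SE 0.20, adjusted p 1.74e-08), a growth arrest gene raised in denervated muscle, Lcn2 (2.64, SE 0.55, adjusted p 0.00122), which encodes the iron-binding protein lipocalin 2 and was detected on 1 of 4 Sham+Saline arrays, and Fbxo32 (2.16, SE 0.24, adjusted p 2.5e-06), the ubiquitin ligase atrogin-1 of muscle wasting. Of the target list, Lcn2 and Cebpb also stand in the acute response list below. The lists share further genes, such as Mt3 and Fkbp4, so their counts are not independent of each other. Gadd45a was also among the top rises in CDTX muscle (1.90), with Lcn2 (2.54) and Cd163 (1.75), a scavenger receptor of macrophages that was 0.35 in saline muscle. The falls were Dusp1 (-1.72), a phosphatase that shuts off MAP kinases, Sesn1 (-1.58) and Plin4 (-0.82), a lipid droplet protein. In CDTX muscle the falls were Sesn1 (-1.04), Pik3r1 (-0.99) and Mertk (-0.90). Sesn1, a stress-response gene of the sestrin family, thus fell in both. Dusp1 was lower both with SCI in saline muscle and with CDTX after sham surgery (-1.21), with an interaction of 2.53 (SE 0.43, adjusted p 0.000354).

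After SCI, CDTX lowered Arrdc2 (-1.59), Trim63 (-1.50), which encodes the muscle ubiquitin ligase MuRF1, and Fbxo32 (-1.32), and after sham surgery it lowered Plin4 (-1.36), Dusp1 and Trim63 (-1.18). The genes that CDTX raised most were Cd163 (1.77), Anxa1 (1.73), an anti-inflammatory phospholipid-binding protein, and Angptl4 (1.49) after SCI, and Anxa1 (2.14), Mertk (1.69), a receptor with which macrophages take up dead cells, and Per1 (1.62), a clock gene, after sham surgery. Cd163, Anxa1 and Mertk are also expressed by macrophages, whose markers were high in both CDTX groups, and the part of those cells in these rises was not tested. The interaction was called positive for 4 genes of the list and negative for 6, where 12% and 11.6% of all kept probes were so called. Most negative were Arrdc2 (-2.16), Per1 (-1.71) and Cdkn1a (-1.56), the cell cycle inhibitor p21. Most positive were Dusp1 (2.53), Plin4 (1.43) and Cd163 (1.40). The Mt1 and Mt2 terms were negative.

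**Figure D5:**
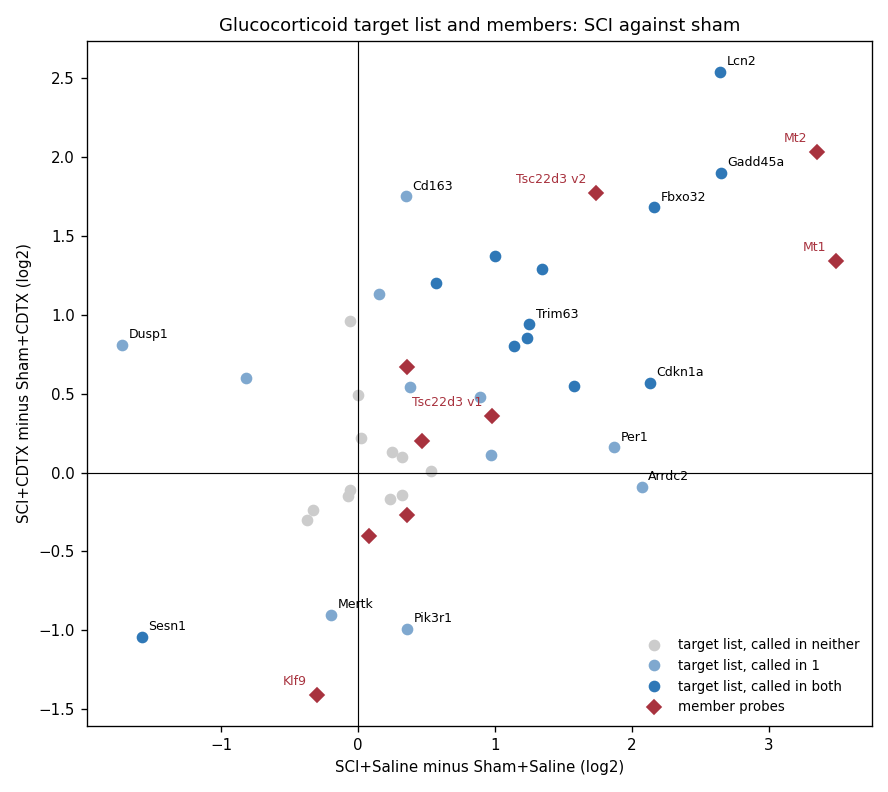
Log2 difference of SCI against sham in saline muscle (x axis) and in CDTX muscle (y axis) for the 35 kept genes of the glucocorticoid target list (circles, darker when called in more comparisons) and the 9 member probes (diamonds). Lcn2, Gadd45a, Fbxo32, Mt1, Mt2 and Tsc22d3 ILMN_2701664 lie high in both, Sesn1 lies low in both, and Klf9 lies low in CDTX muscle.

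The receptor's partner proteins and the enzymes that make or break active hormone formed a list of 20, of which 13 were kept. With SCI in saline muscle 6 rose and 1 fell, where 29.5% of all kept probes were called. Hsp90ab1, a cytosolic form of heat shock protein 90, rose by 1.14, and Hsd11b1, the enzyme that regenerates active hormone within the cell, rose by 1.31 (SE 0.15, adjusted p 3.26e-06). Hsp90aa1, the other cytosolic form, was not above background on any Sham+Saline array and rose at least 2.35-fold (adjusted p 8.51e-06). Fkbp4, the partner that competes with FKBP51, fell by 0.85 on the log2 scale. In CDTX muscle SCI gave 4 higher and 4 lower, where 29.8% of all kept probes were called. Highest were Por (1.42), H6pd (0.88), which supplies the cofactor of Hsd11b1, and Hsp90ab1 (0.71). Lowest were the co-regulators Ep300 (-1.04) and Ncor1 (-0.87). CDTX lowered Hsd11b1 by 0.66 after SCI (adjusted p 0.00273), with an interaction of -0.82 (adjusted p 0.0113). CDTX after SCI gave 1 higher and 4 lower in this list (42.9% of all kept probes called), which became 0 and 0 with all 16 arrays (35.1%). CDTX after sham surgery gave 1 higher and 1 lower, where 48.9% of all kept probes were called. These counts became 9 and 0 after median scaling, where 53.4% of all kept probes were called and 85.1% of those calls were higher.

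Genes of zinc handling and metal or oxidative stress formed a list of 13 without the members, 12 of them kept. SCI in saline muscle gave 5 higher and 1 lower (29.5% of all kept probes called), and SCI in CDTX muscle gave 2 higher and 2 lower (29.8%) with a median of -0.11. CDTX after sham surgery gave 5 higher and 1 lower (48.9%), near the background in number. Mt3, a metallothionein best known from brain, rose by 1.48 with SCI in saline muscle (SE 0.28, adjusted p 0.00051) and by 3.60 with CDTX after sham surgery (SE 0.28, adjusted p 1.51e-08). Hmox1, heme oxygenase 1, rose by 1.54 and by 3.10 in the same comparisons, with 3 of 4 Sham+Saline arrays detected for Mt3 and 2 of 4 for Hmox1. Unlike Mt1 and Mt2, Mt3 was lower in SCI+CDTX than in Sham+CDTX (-1.25, adjusted p 0.00394). Gclm, which helps make glutathione, rose by 2.31 with SCI in saline muscle. Mtf1, the metal-regulated factor, whose probe lay close to background, was slightly lower with SCI in saline muscle (-0.50, adjusted p 0.0362) and with CDTX after sham surgery (-0.54, adjusted p 0.0154), and neither was called with SCI+Saline 4 and Sham+Saline 4 left out. The interaction was called for 5 genes, all negative, with Mt3 at -2.73, Hmox1 at -1.91 and Gclm at -1.40. Of all kept probes 23.6% had a called interaction, 11.6% a negative one. With all 16 arrays 3 genes of the list were called, all negative, where 10.2% of all kept probes were called.

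The interleukin-6 type cytokines act through STAT3 and C/EBP factors on several of the same genes, so a list of 15 genes of that acute response was read beside the members, and all 15 were kept. SCI in saline muscle gave 7 higher and 0 lower (29.5% of all kept probes called), SCI in CDTX muscle 6 and 1 (29.8%), CDTX after sham surgery 7 and 1 (48.9%), and CDTX after SCI 6 and 0 (42.9%). Saa3, a serum amyloid of inflamed tissue, was not above background on any Sham+Saline array. It rose at least 2.22-fold with SCI in saline muscle (adjusted p 0.0101) and at least 4.64-fold with CDTX after sham surgery, and Junb rose by 1.97 and 1.93 on the log2 scale. Socs3, the feedback inhibitor of STAT3, was among the top rises with SCI in CDTX muscle (1.91, adjusted p 0.00024), with an interaction of 2.01 (adjusted p 0.00315). With SCI in saline muscle the other 8 genes of the list were not called. Among them were Socs3 (mean 7.1 in SCI+Saline, 7.19 in Sham+Saline) and Fos (6.89 and 7.85). Median scaling gave 8 higher and 0 lower there, where 86.4% of all calls were higher. So the rise of Mt1, Mt2 and Tsc22d3 with SCI in saline muscle came together with a called rise of 7 of these 15 genes. The part of each pathway was not tested.

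Relatives of the members formed a list of 22, of which 21 were kept. SCI in saline muscle gave 2 higher, Mt3 and Cebpb (1.23), and 2 lower, Fkbp4 and Pdk2 (-0.82, adjusted p 0.00998), where 29.5% of all kept probes were called. SCI in CDTX muscle gave 1 higher, Cebpb (0.85), and 8 lower (29.8% called) with a median of -0.33, where the members had 4 higher and 1 lower. Pdk2, the kinase of the same family as Pdk4 that prevails in resting muscle, was lower in SCI+CDTX than in each other group, with log2 differences of -2.06 from Sham+Saline, -1.68 from Sham+CDTX and -1.25 from SCI+Saline. Pdk3 rose by 1.65 with CDTX after sham surgery (SE 0.14, adjusted p 5.33e-08). Sgk3 fell by 0.98 with CDTX after sham surgery and by 0.87 after SCI, where Sgk1 stood at 0.54 and 0.26. Of the Tsc22d3 relatives, Tsc22d1 was lower with CDTX after sham surgery (-0.82, and 0.01 after median scaling) and Tsc22d2 with CDTX after SCI (-0.61).

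For each member probe the genes whose levels were most like it over the 15 arrays were found by Pearson's r. Where groups lie far apart, r mainly follows the 4 group means and not the arrays within a group. For Mt1 these means ran from 10.23 to 13.83, with SDs within groups of 0.1 to 0.23. The Tsc22d3 probe ILMN_2701664 was closest to the proteasome subunit genes Psmd8 (0.981), Psmc4 (0.974) and Psmd4 (0.973), whereas ILMN_3150811 was closest to Nabp1 (0.961), Fbxo2 (0.953) and Ciart (0.95). Mt1 was closest to Chrna1 (0.977), the acetylcholine receptor subunit that rises when muscle loses its nerve, then Dusp4 (0.966) and Uck2 (0.964), and Mt2 to Pla2g7 (0.963), Tgif1 (0.958) and Chil1 (0.954). Klf9 was closest to A2bp1 (0.963), a muscle splicing factor, Mef2c (0.952), a factor of muscle gene expression, and Dbt (0.94). Pdk4 was closest to Ucp3 (0.819), a mitochondrial protein induced by fatty acids, Fkbp5 to Pum2 (0.865) and Sgk1 to Plpp1 (0.884). Nr3c1 was closest to Rbm26 (0.938), but its probe was detected on 5 of the 15 arrays. That r rests mostly on values at background.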

How the data were processed

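Biotin-labelled cRNA, made with an Ambion MessageAmp kit from Trizol-extracted muscle RNA per the labels' protocols, was measured on Illumina arrays read with GenomeStudio 2011.1, per the submitters' processing notes. The deposited non-normalized table gives each array's mean bead intensity and a detection p-value for each probe, with no normalization, per the file headers. The authors' deposited normalized tables hold group mean intensity and a difference p-value, made with average normalization and a background subtraction that the analysis name in the header gives. No column of per-sample values was left unused (0 columns). The number of arrays, 3 or 4 a group, limits the precision.

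For 15 arrays, neqc of limma 3.58.1 (run in R 4.3.3) corrected the background from the detection p-values, added an offset of 16, quantile normalized and took log2. The offset understates fold changes of dim probes. The filter kept probes that at least 3 arrays detected (p under 0.05). One model of 4 group means was fitted with lmFit and eBayes, and adjusted p-values come from limma over all kept probes. For other lists the kept probe with the highest mean stood for its gene, and at most the 3 called higher and 3 called lower genes with the largest difference are named in a comparison, with the 3 genes most like each member probe. Array symbols were updated through Entrez identifiers for 23681 probes, of which 4172 changed. The array annotation names no genome build, so only its chromosomes and bands are given. Promoter windows came from RefSeq (GRCm38.p6), matched by symbol.

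The members, lists and alternatives were chosen with earlier results of these data known. The neutrophil-marker arrays were left out together, and the lists rescaled, only after the data were seen. Alternatives were all 16 arrays, median scaling, no background correction, each slide separately, no detection filter and a stricter one. The stricter filter asked for p under 0.01 throughout at least 1 group. Further alternatives were eBayes with a trend and robust variances, only the groups compared and the replicate number as a block. The rest were the probe difference score as covariate on all 16 arrays, the authors' group means, and each array left out. No array pair was identical.

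The replicate numbers were checked for pairing by correlating array deviations from their group means. Over 21 pairs of the same number r ran from -0.27 to 0.38 with 3 above 0.1, so the numbers were not taken as pairs.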

Additional observations from a re-analysis of the deposited data

Results flagged for a closer look

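Of 27 groups of 4 arrays and member probes, 3 held an array far from its group, and chance flags about 1 in 20. Pdk4 and Sgk1 were lowest on the same array, SCI+Saline 1, at 9.33 and 11.69, and the Tsc22d3 probe ILMN_2701664 was highest on Sham+Saline 2 at 6.79.

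The CDTX effect differed between SCI and sham mice, by the interaction term, at 3 member probes, where 23.6% of all kept probes were called. The term was -2.15 for Mt1, -1.32 for Mt2 and -0.62 for the Tsc22d3 probe ILMN_3150811. That of Mt2 rests on Sham+Saline arrays at background, and that of ILMN_3150811 was called in 3 of the 15 fits without 1 array.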

How the results depend on the processing

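The number of called member probes stayed within 1.5 times of its value for SCI+CDTX against SCI+Saline, SCI+CDTX against Sham+CDTX, SCI+Saline against Sham+Saline and SCI+CDTX against Sham+Saline in all alternatives run. The background did not stay so for SCI+CDTX against Sham+CDTX. There 29.8% of all probes tested were called in the 15-array fit, 17.5% with all 16 arrays and 1.75% with the probe difference score. For Sham+CDTX against Sham+Saline 48.9% of all probes tested were called in the 15-array fit, 47.5% without background correction and 20.6% with the probe difference score. Among member probes the 5 called became 3 without background correction and 2 with the score. For the interaction 23.6% of all probes tested were called in the 15-array fit, 32.1% after median scaling and 0.294% with the score. Among member probes the 3 called became 6 after median scaling and 1 with the score. Leaving out 1 array at a time gave 2 to 3 called for SCI+CDTX against SCI+Saline, 4 to 6 for Sham+CDTX against Sham+Saline, 4 to 6 for SCI+CDTX against Sham+CDTX, 4 to 6 for SCI+Saline against Sham+Saline, 5 to 6 for SCI+CDTX against Sham+Saline and 2 to 3 for the interaction. In the same order, the shares of all probes tested that were called ran from 32.4% to 45.6%, 44.3% to 50.3% and 21.8% to 31.3%. They then ran from 24.9% to 30.8%, 38.8% to 47.9% and 18.8% to 26.3%. Among differences called in the 15-array fit, the sign reversed for Nr3c1 (-0.51) in Sham+CDTX against Sham+Saline, Klf9 (0.41) in SCI+CDTX against Sham+CDTX and the Tsc22d3 probe ILMN_3150811 (0.32) in the interaction, all with the score, and the Tsc22d3 probe ILMN_2701664 (0.05) in Sham+CDTX against Sham+Saline after median scaling, none called there. Differences that were not called also changed sign in some alternatives, such as Fkbp5 in Sham+CDTX against Sham+Saline after median scaling. The cause was not tested. Quantile normalization of each slide separately moved the share of calls that were higher from 49.9% to 66.6% for SCI+CDTX against Sham+CDTX, from 50.3% to 68.3% for SCI+Saline against Sham+Saline and from 49.4% to 60% for SCI+CDTX against Sham+Saline. Median scaling moved it from 47.6% to 64.9% for SCI+CDTX against SCI+Saline, to 82.6% for SCI+CDTX against Sham+Saline and from 51% to 17.7% for the interaction. With the replicate number as a block, the Tsc22d3 probe ILMN_3150811 was not called in SCI+CDTX against Sham+Saline (0.44, adjusted p 0.0548) or in the interaction (-0.64, adjusted p 0.0724), and no other call of a member changed. Only 3 of 15 arrays correlated best with their own number. Mt2 in Sham+Saline and Nr3c1 in most groups are limited by signal over background.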
